A study of Mus musculus with 6 samples.

Results

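The hepcidins and the genes that carry, take up, store, export and sense iron were followed in livers of mice lacking RECS1 in hepatocytes. All probe sets whose platform gene symbol was Hamp, Hamp2, Scara5, Tfrc, Tfr2, Trf, Slc40a1, Fth1, Ftl1 or Hfe were taken. That gave 16 probe sets of 8 genes among the 38195 probe sets tested, and Trf and Ftl1 were not analysed here. The genes were proposed with results of these arrays in view, so a count over them is a description of these 6 livers. A further 3 Tfrc probe sets are Affymetrix control features and stayed outside the tests.

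The controls were C57BL/6 mice of genotype RECS1-flox, which carry a conditional allele of RECS1, an older name of Tmbim1 (n = 3). The RECS1-HKO mice had lost RECS1 in hepatocytes (n = 3). How the gene was deleted in hepatocytes is not given in the labels. Both groups received a high-fat diet for 8 weeks from 8 weeks of age, and livers were taken at 16 weeks. No group on a normal diet was analysed here, so the genotypes can be compared only under this diet. Each array held RNA of 1 liver, and the labels describe the samples as biological samples.

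Systemic iron is set by hepcidin, a peptide hormone that hepatocytes secrete. Hepcidin binds ferroportin, the cellular iron exporter encoded by Slc40a1, and causes its degradation, so that less iron leaves macrophages and enterocytes. Hepatocytes raise Hamp transcription through bone morphogenetic protein (BMP) signals to SMAD factors when iron is plentiful, and through interleukin 6 and STAT3 during inflammation. Mice have a pair of adjacent hepcidin genes, Hamp and Hamp2, of which Hamp encodes the iron-regulating hormone.

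The sequences just upstream of the annotated starts are shown for the hepcidin pair, because a probe set of Hamp2, but none of Hamp, passed the test between genotypes, and the genes are close copies. Both are from RefSeq, build GRCm38.p6, minus strand, with chr7:30944030-30944279 for Hamp and chr7:30924182-30924431 for Hamp2. Capitals mark the letters GGCGCC (the core of the BMP response element), TTCNNNGAA (a STAT site) and TGANTCA (an AP-1 site) in Hamp, searched on both strands, and the aligned letters in Hamp2.
Hamp: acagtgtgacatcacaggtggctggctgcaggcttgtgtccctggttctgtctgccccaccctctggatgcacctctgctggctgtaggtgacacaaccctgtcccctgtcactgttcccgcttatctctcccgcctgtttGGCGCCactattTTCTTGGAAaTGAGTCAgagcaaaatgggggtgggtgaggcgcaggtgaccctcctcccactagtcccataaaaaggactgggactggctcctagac
Hamp2: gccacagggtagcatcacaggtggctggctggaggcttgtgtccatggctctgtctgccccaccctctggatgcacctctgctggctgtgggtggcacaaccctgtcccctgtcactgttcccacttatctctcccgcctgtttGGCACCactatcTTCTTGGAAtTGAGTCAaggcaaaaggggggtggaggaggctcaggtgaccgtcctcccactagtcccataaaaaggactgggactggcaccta
Of 247 aligned bases, 227 (91.9%) were identical. The STAT and AP-1 letters were the same in both genes. The BMP element differed by 1 substitution, G4A, counted from 1 at the 5′ end of its 6 letters with the Hamp base first, so that GGCGCC was not found in the 250 bases of Hamp2. Among 32817 upstream windows of this length, 9.59% held GGCGCC, 7.01% TTCNNNGAA and 6.75% TGANTCA. Of the other members with an upstream window, 1 of the 2 windows of Tfrc held GGCGCC and that of Hfe held TGANTCA. Scara5, Trf and Slc40a1 had no window in the sequences used and were not searched. These matches are letters only, and no binding was measured.

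Values are log2 intensities as deposited, and differences are HKO minus control on the log2 scale with the standard error (SE) of limma. This method fits a linear model to each probe set and moderates its variance with information from all probe sets. A probe set was called changed at a Benjamini-Hochberg adjusted p under 0.05 over all 38195 probe sets. Array medians lay between 3.92 and 3.95. Correlations across probe sets were 0.9947 to 0.9959 within and 0.991 to 0.994 across genotypes. The targeted gene Tmbim1 fell from 7.65 ± 0.08 to 7.13 ± 0.07 (SD, n = 3 each; difference -0.52 ± 0.08, limma adjusted p = 0.0338; 0.0895 to 0.125 without any 1 array). Hepatocyte markers were the brightest of the marker lists, with a mean of 11.65 to 11.94 log2 units per array. The brightest probe set of Xist, expressed from the inactive X chromosome of females, stood between 1.20 and 1.57 over the 6 arrays. That of the Y-linked Eif2s3y stood between 6.74 and 7.14. The other Xist probe set lay between 1.17 and 1.64, and the other Eif2s3y probe set between 1.34 and 1.56. By the brightest probe sets, all 6 livers had the pattern of males. The labels give no sex, which matters here because hepcidin is known to differ between male and female mice.

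Of the 16 member probe sets, 1 rose and 1 fell in HKO liver, a share of 12.5%, against 0.702% of all probe sets (0.367% higher, 0.335% lower). Hamp2 rose and the ferritin receptor Scara5 fell. Hamp, Tfrc, Tfr2, Slc40a1, Fth1 and Hfe had no probe set past the threshold. The groups did not overlap in 6 of the 16 probe sets (4 higher and 2 lower in HKO), or 37.5%, against 16.9% of all probe sets (7.8% higher, 9.15% lower). The median difference was 0.04 over the members and -0.003 over all probe sets. With dimmer probe sets left out, 2 of 13 member probe sets passed, against 308 of 19098 over all.

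**Figure D1:**
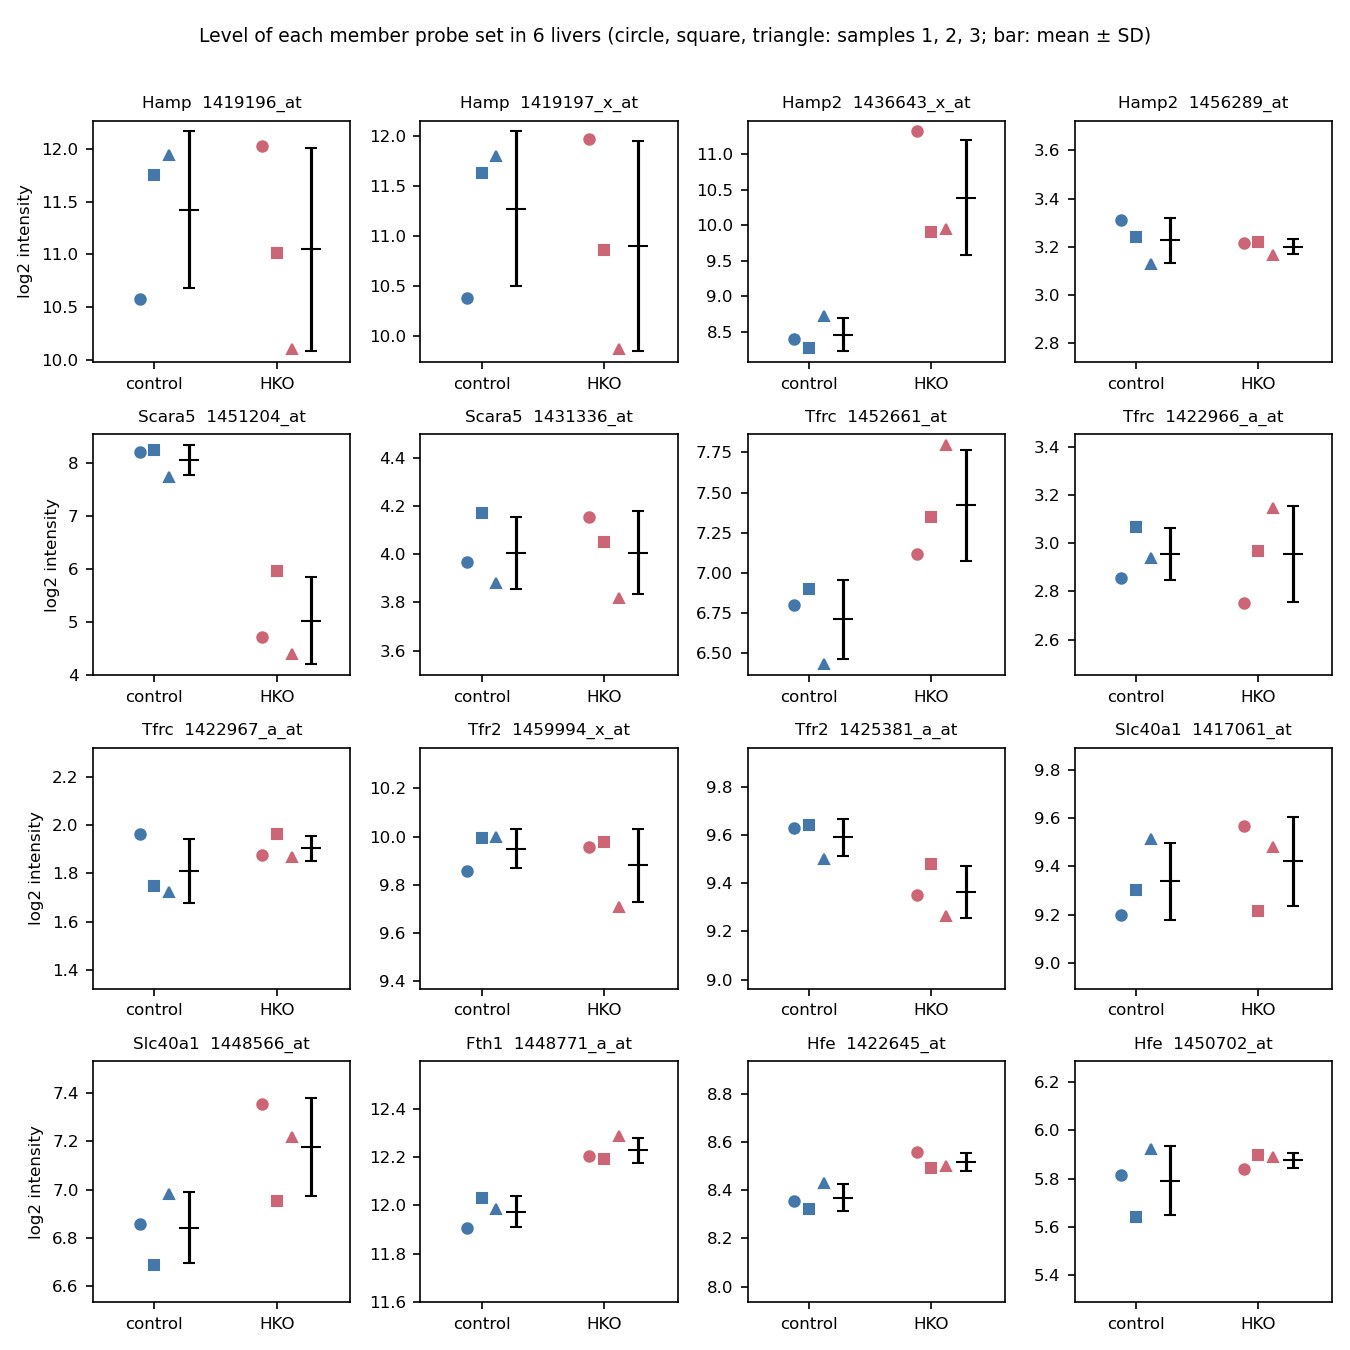
Log2 intensity of each of the 16 member probe sets in the 3 control and 3 HKO livers. Points are single livers, bars the mean ± SD, and each panel has its own axis of at least 1 log2 unit. Hamp2 1436643_x_at lies between 8.27 and 8.72 in controls and between 9.90 and 11.31 in HKO, and Scara5 1451204_at between 7.74 and 8.24 against 4.41 and 5.97.

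The hormones are described first. The Hamp probe set 1419196_at stood at 10.57, 11.75 and 11.94 in controls 1 to 3 and at 12.03, 11.01 and 10.10 in HKO 1 to 3. The highest and the lowest of the 6 livers were both HKO livers, and the groups overlapped. Its difference was -0.38 ± 0.48 (95% interval -1.47 to 0.72, limma adjusted p = 0.819), and without HKO 3 it was 0.10. The other probe set, 1419197_x_at, ordered the 6 livers the same way, from 9.87 in HKO 3 to 11.97 in HKO 1 (difference -0.37 ± 0.52, limma adjusted p = 0.837). The interval spans from a fall to a rise, so these arrays exclude neither a fall nor a rise of a size within it.

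Hamp2 encodes the second hepcidin, which is not known to regulate iron as Hamp does. Its probe set 1436643_x_at stood at 8.40, 8.27 and 8.72 in controls and at 11.31, 9.90 and 9.95 in HKO livers. Every HKO value lay above every control value, and HKO 1 was highest. Hamp2 rose by 1.92 ± 0.33 on the log2 scale, or to 3.79 times the control level (95% interval of the log2 difference 1.16 to 2.68, limma adjusted p = 0.0484). The call was close to the threshold. It was lost in 5 of the 6 fits without 1 array (adjusted p 0.0638 to 0.176), while the fit without HKO 1 kept it at 1.46 (0.0108).

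The second Hamp2 probe set, 1456289_at, showed nothing of this. It lay between 3.13 and 3.31 in controls and between 3.17 and 3.22 in HKO livers, below the median probe set (3.94), with a difference of -0.03 ± 0.08 (limma adjusted p = 0.935). By the median of its probe sets, Hamp2 stood at 0.95 (adjusted p = 0.0528). In the Affymetrix naming, the suffix x_at marks a probe set with some probes that may bind related transcripts, so Hamp RNA may be part of the signal of the brighter Hamp2 probe set. How much was not tested.

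The difference between the hepcidins was also taken within each array. Brightest Hamp2 minus brightest Hamp was -2.17, -3.48 and -3.23 in controls and -0.72, -1.11 and -0.15 in HKO livers. The groups did not overlap. The mean went from -2.96 ± 0.70 to -0.66 ± 0.48 (SD, n = 3 each), a difference of 2.30 (exact permutation test, two-sided, p = 0.1, the smallest p that 3 against 3 arrays allow). Signals of different probe sets are not on 1 scale, so the gap within an array is not a ratio of transcripts, and its shift between genotypes restates the values above: the pair was compared because Hamp2 had passed and Hamp had not, and the test could not reach the threshold. With the mean of the probe sets of each gene, the shift was 1.32 (exact permutation p = 0.2).

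**Figure D2:**
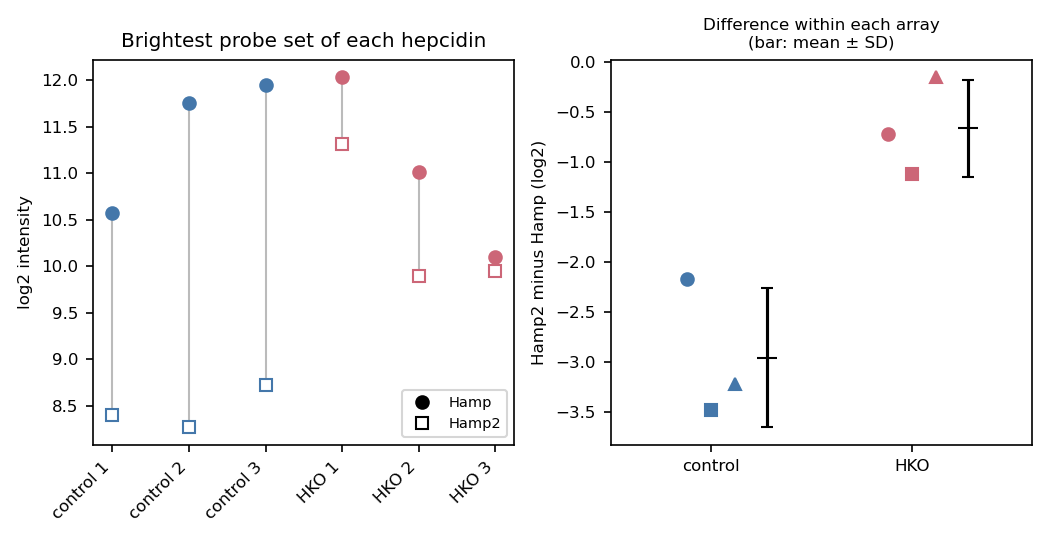
The left panel gives the log2 intensity of the brightest Hamp (filled circles) and Hamp2 (open squares) probe set on each of the 6 arrays, with a line joining the pair, and the right panel the difference Hamp2 minus Hamp with mean ± SD. The difference lies between -3.48 and -2.17 in controls and between -1.11 and -0.15 in HKO livers.

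The iron sensors Hfe and Tfr2 act together at the hepatocyte membrane to signal transferrin-bound iron to hepcidin. Hfe probe set 1422645_at stood at 8.35, 8.32 and 8.43 in controls and at 8.56, 8.49 and 8.50 in HKO livers. The groups did not overlap, but the difference of 0.15 ± 0.08 did not pass (limma adjusted p = 0.502). The dimmer Hfe probe set, 1450702_at, overlapped between groups, at 0.08 ± 0.09 (0.782). Tfr2 probe set 1425381_a_at stood at 9.63, 9.64 and 9.50 in controls and at 9.35, 9.48 and 9.26 in HKO livers, which were all lower. Its difference was -0.22 ± 0.09 (limma adjusted p = 0.366). The brighter 1459994_x_at lay between 9.71 and 9.997 over all livers, with a difference of -0.07 ± 0.10 (0.837), so neither Tfr2 probe set was called.

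Tfrc encodes transferrin receptor 1, which takes up transferrin-bound iron, and its mRNA is known to be stabilised when cells are short of iron. Probe set 1452661_at stood at 6.80, 6.90 and 6.43 in controls and at 7.12, 7.34 and 7.80 in HKO livers. All HKO values lay above all control values. The difference of 0.71 ± 0.18 (1.64 times the control level, 95% interval of the log2 difference 0.30 to 1.12) had an unadjusted p of 0.00366 and did not pass over all probe sets (limma adjusted p = 0.168). In the fits without 1 array it ranged from 0.52 to 0.86. The probe sets 1422966_a_at and 1422967_a_at lay between 1.72 and 3.15, below the median probe set, with differences of 0.001 and 0.09. The 3 Affymetrix control features for Tfrc lay between 1.17 and 2.14 and differed by -0.04 to 0.09. Of the tested Tfrc probe sets, only 1452661_at separated the genotypes, and it was not called.

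Scara5 is a scavenger receptor known to take up ferritin, a route of iron entry that does not need transferrin. Its probe set 1451204_at stood at 8.20, 8.24 and 7.74 in controls and at 4.71, 5.97 and 4.41 in HKO livers. Every HKO liver was lower than every control, and HKO 2 was the highest of its group. Scara5 fell by 3.03 on the log2 scale, with an SE of 0.35, to 0.123 times the control level (95% interval of the log2 difference -3.82 to -2.23, limma adjusted p = 0.00734). In fits without 1 array the difference lay between -3.50 and -2.72. The call was lost without HKO 1 (adjusted p = 0.0638) and in the fit with trended and robust variances (0.0983). The other probe set, 1431336_at, lay between 3.82 and 4.17 in all 6 livers, close to the median probe set, with a difference of 0.00 ± 0.11. By the median of its probe sets, Scara5 stood at -1.51. Which transcripts each probe set detects is not given in the annotation used. In whole liver, fewer cells that express a gene and less of its RNA per cell cannot be told apart.

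**Figure D3:**
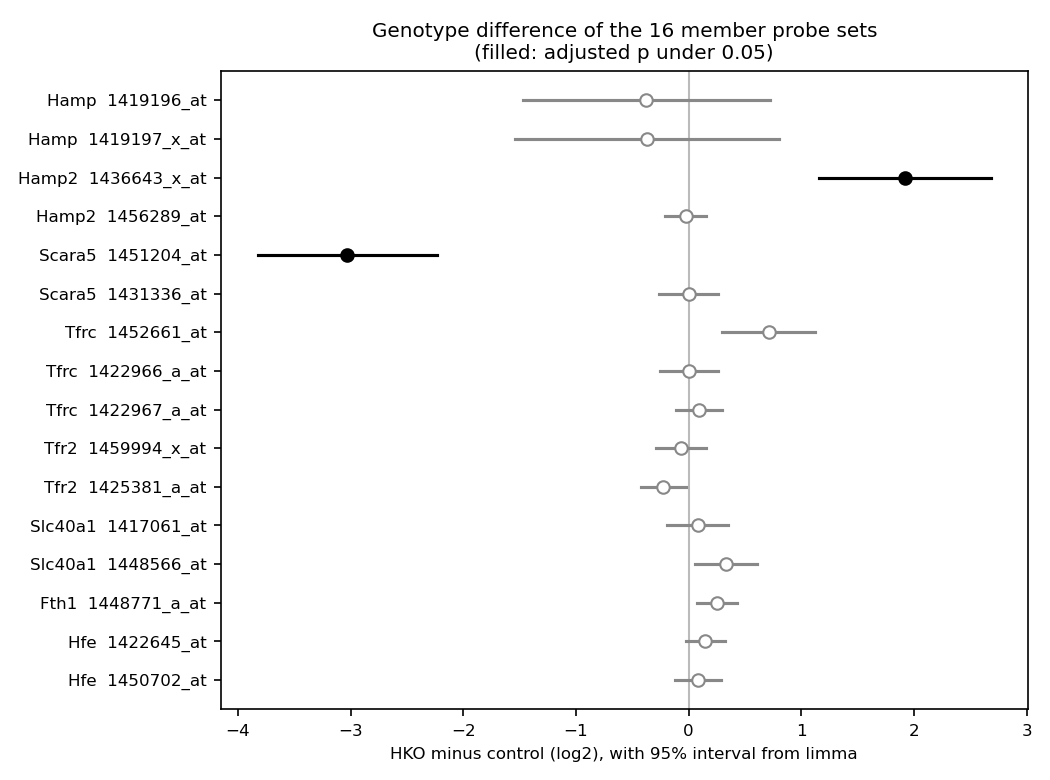
Difference between genotypes (HKO minus control, log2) of the 16 member probe sets, with 95% intervals from limma. Filled points passed at an adjusted p under 0.05: Hamp2 1436643_x_at at 1.92 and Scara5 1451204_at at -3.03. The interval of Tfrc 1452661_at runs from 0.30 to 1.12.

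Ferroportin, the exporter on which hepcidin acts, is encoded by Slc40a1. Its brighter probe set 1417061_at stood at 9.20, 9.30 and 9.51 in controls and at 9.57, 9.21 and 9.48 in HKO livers. These overlapped, with a difference of 0.08 ± 0.12 (limma adjusted p = 0.842). Probe set 1448566_at stood at 6.86, 6.69 and 6.98 in controls and at 7.36, 6.95 and 7.22 in HKO livers, and control 3 lay above HKO 2. Its difference was 0.33 ± 0.12 (limma adjusted p = 0.329). Hepcidin acts on the ferroportin protein, which was not measured.

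Fth1 encodes the heavy chain of ferritin, the iron storage protein. Its probe set 1448771_a_at, brighter than 99.8% of all probe sets, stood at 11.91, 12.03 and 11.98 in controls and at 12.20, 12.19 and 12.29 in HKO livers. The HKO values were all higher and close together. The difference of 0.25 ± 0.08, or 1.19 times the control level, did not pass (unadjusted p = 0.0105, limma adjusted p = 0.254). It lay between 0.22 and 0.28 without any 1 array. Ferritin is controlled largely at translation, which arrays of RNA do not show.

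The other genes of iron and haem handling were taken from a list of 78 measured genes with 165 probe sets. Of these probe sets, 2 rose and 1 fell (1.82%, against 0.702% of all probe sets). Their median difference was -0.02, against -0.003 over all probe sets. At an unadjusted p under 0.05 there were 27 of the 165, or 16.4%, against 11.8% of all probe sets. This list and its parts were chosen with earlier results of these data known, so shares over them describe these livers and do not test for enrichment. The list is brighter than the background. With dimmer probe sets left out, 4 of its 133 probe sets passed, against 308 of 19098 over all, so the share over all probe sets depends on brightness. The probe set with the lowest p is given for each gene below. The BMP and SMAD route to hepcidin had 0 of 38 probe sets past the threshold by limma (2 at an unadjusted p under 0.05, and a median of 0.01). The SMAD factor Smad5 stood at 0.27 (adjusted p = 0.298), but its brightest probe set at -0.02. The receptor Acvr1 stood at 0.23 (0.316), but its other probe sets at 0.01. Regulators of this route were also read after their values had been seen. The ligand Bmp6 stood at -0.25 (0.428), the BMP co-receptor Hjv at 0.27 (0.555; its brightest probe set was at 0.08), the BMP target Id1 at -0.27 (0.492), and Tmprss6, a protease that restrains hepcidin, at -0.16 (0.438). The ligand Bmp2 stood at 0.004 (limma adjusted p = 0.994), Smad6 at 0.17 (0.664) and Atoh8 at -0.20 (0.525). Smad7 stood at -0.12 (0.711; its brightest probe set was at -0.06), so the genes of this route did not go 1 way.

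In the interleukin 6 and STAT3 route, 1 of 20 probe sets rose and none fell (5%, against 0.702% of all probe sets), with a median of -0.15. At an unadjusted p under 0.05 there were 8 of the 20 (40%, against 11.8% of all probe sets). The groups did not overlap in 8 (40%, against 16.9%), 3 higher and 5 lower in HKO. Socs3 and Stat3 each hold more than 1 of the probe sets in either count of 8. The genes of this route were listed with earlier results known, so these shares are a description only. Il6, the cytokine that induces hepcidin, stood at 1.69, 1.20 and 1.40 in controls and at 3.74, 3.13 and 3.43 in HKO livers. Il6 rose by 2.00 ± 0.17 (limma adjusted p = 0.00121) and passed in all 6 fits without 1 array. All 6 values lie below the median probe set (3.94), so this is a difference between dim signals. Socs3, a feedback inhibitor that STAT3 induces, was read after its values had been seen. Its 3 probe sets stood at -0.59, -0.48 and -0.49, with the HKO values below the control values in each, and none passed (lowest limma adjusted p = 0.0606, for 1455899_x_at, which passed in 2 of 6 alternative fits to all arrays). Stat3 itself stood at -0.39 (0.286) and its brightest probe set at -0.32. Its dimmer probe sets 1459961_a_at and 1424272_at stood at 0.02 and 0.09, so the Stat3 probe sets did not go 1 way. The receptor gene Il6ra, also read after its values had been seen, stood at -0.79 in its brightest probe set (limma adjusted p = 0.344). Its other probe set stood at -0.26 (0.464), and the groups overlapped in both.

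Haem and haemoglobin handling held the other calls, with 1 of 13 probe sets higher and 1 lower (15.4%, against 0.702% of all probe sets). At an unadjusted p under 0.05 there were 6 of the 13 (46.2%, against 11.8% of all probe sets), both Lrp1 probe sets among them. These genes too were listed with earlier results known, so both shares are a description only. Flvcr2, a transporter first described for haem, stood at 4.81, 4.92 and 4.85 in controls and at 5.61, 5.41 and 5.36 in HKO livers. Flvcr2 rose by 0.60 ± 0.09 (limma adjusted p = 0.0295). Lrp1, an endocytic receptor that clears haem bound to haemopexin among many other ligands, fell in probe set 1442849_at from 5.41 ± 0.25 to 4.56 ± 0.22 (SD, n = 3 each; difference -0.85 ± 0.15, limma adjusted p = 0.049). The brighter Lrp1 probe set 1448655_at stood at -0.33 ± 0.11 (0.298). Neither Flvcr2 nor Lrp1 passed in any of the 6 fits without 1 array (adjusted p 0.0614 to 0.116 and 0.0558 to 0.161). Cd163, the haemoglobin receptor of macrophages, read after its values had been seen, stood at -0.48 (0.0616) and passed in 3 of 8 alternative fits to all arrays.

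No probe set passed by limma in the remaining lists of iron uptake, reduction and export (34 probe sets, 4 at an unadjusted p under 0.05), haem synthesis and breakdown (22 and 3), iron sensing and ferritin turnover (16 and 2) and mitochondrial iron and iron-sulfur clusters (22 and 2). These unadjusted shares lie near the 11.8% of all probe sets. In order of these lists, the lowest p values belonged to the plasma ferroxidase Cp at -0.28 (adjusted p = 0.206; its brightest probe set was at -0.09) and the endosomal ferrireductase Steap3 at -0.26 (adjusted p = 0.267). The log2 difference of Steap3 by the median of its probe sets had the other sign, at 0.0634. That median is the dim probe set 1453498_x_at, at 1.95 to 2.52 and below the median probe set (3.94). In the brightest Steap3 probe set, 1423468_at, which gave the -0.26, all HKO values were lower. Cp and Steap3 were followed by the haem synthesis enzyme Urod at 0.38 (0.219; its other probe set was at -0.02) and the haem oxygenase Hmox2 at -0.22 (0.285). Fbxl5, which senses iron and marks the iron regulatory protein Ireb2 for degradation, stood at 0.26 (0.323), and the hypoxia factor Epas1 at -0.22 (0.375). The mitochondrial transporter Abcb10 stood at -0.24 (0.334) and the ferredoxin Fdx1 at -0.19 (0.43).

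**Figure D4:**
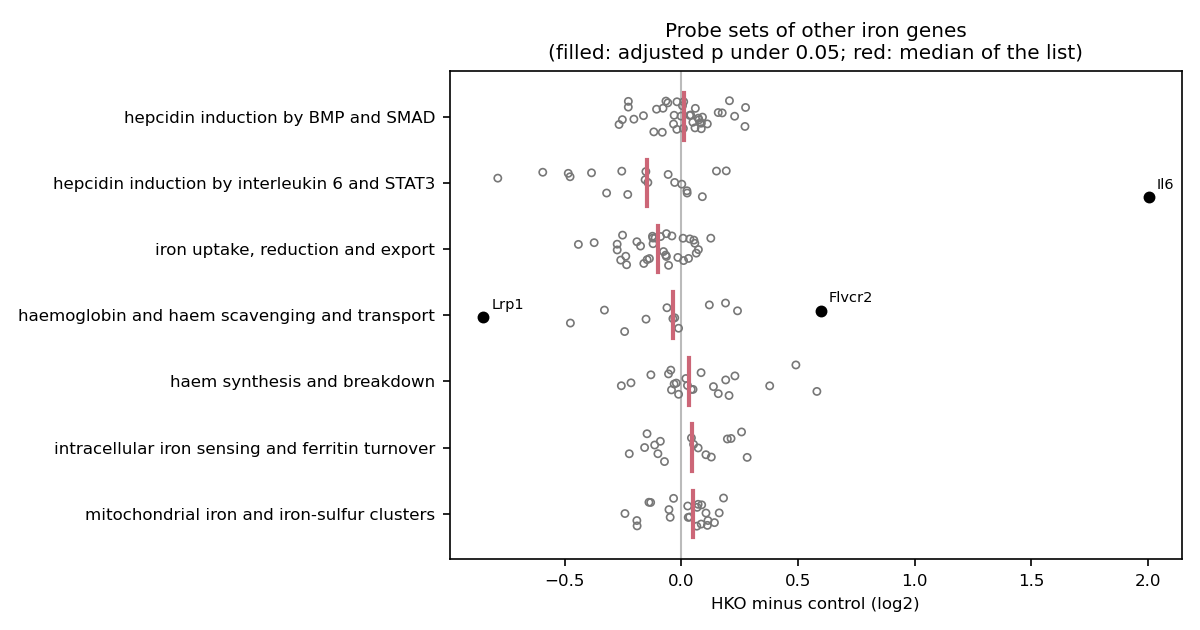
Difference between genotypes (HKO minus control, log2) of the 165 probe sets of other iron genes, 1 point for each probe set, by list, with the median of each list in red. Il6 at 2.00, Flvcr2 at 0.60 and Lrp1 at -0.85 are filled and passed at an adjusted p under 0.05.

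Markers of cell types were read beside these genes. None of the 9 macrophage and Kupffer cell genes passed in any of 12 probe sets by limma (0 at an unadjusted p under 0.05), with mean levels of 7.33 to 8.00 in controls and 7.56 to 8.06 in HKO livers. The 8 genes of sinusoidal endothelium, a source of BMP ligands in liver, also had 0 of 10 probe sets past the threshold (0 unadjusted), at 6.38 to 6.53 and 6.22 to 6.58. The 8 stellate cell and fibroblast genes had 0 of 17 (0 unadjusted), at 6.33 to 6.62 and 6.40 to 6.80. The hepatocyte genes had 0 of 19 (2 unadjusted), at 11.74 to 11.89 and 11.65 to 11.94.

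Of the rarer cells, erythroid genes had 0 of 7 probe sets past the threshold (0 unadjusted), at 4.01 to 4.32 and 3.98 to 4.33, and 3 of the 4 genes were below the median probe set. Adipocyte genes had 0 of 3 (0 unadjusted), at 2.93 to 3.18 and 2.90 to 3.05, with Adipoq at 2.03 or less on every array. The cholangiocyte list was the one list whose groups did not overlap, with mean levels of 3.17 to 3.26 in controls and 2.89 to 2.99 in HKO livers, though 0 of its 9 probe sets passed (2 unadjusted) and 4 of its 5 genes were below the median probe set. Whether this had a part in the fall of Scara5 was not tested.

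The genes whose levels followed those of Hamp, Hamp2 and Scara5 most closely over the 6 arrays were found by Pearson's r among named probe sets above the median level. Since r is taken over both genotypes, it holds their difference, and with 6 arrays and this many probe sets high values are easily reached. For Scara5 these were Syngr2 (r = 0.9986), Hc, which encodes complement component C5 (r = 0.9979), and Slc25a34 (r = 0.9967). Hc stood at 11.49, 11.55 and 11.46 in controls and at 10.95, 11.15 and 10.89 in HKO livers (limma adjusted p = 0.0514). For Hamp2 they were Dnajc5 (r = 0.9887), Pnpla8 (r = 0.9874) and Stom (r = 0.9864), and for Hamp Eif5a (r = 0.9977), Prxl2b (r = 0.9893) and Bag1 (r = 0.9823). None of these 9 genes passed the test between genotypes. Pearson's r takes no account of the size of a change. Eif5a lay only between 11.30 and 11.36 over the 6 arrays. Syngr2 differed between genotypes by -0.10, against -3.03 for Scara5.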

How the data were processed

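Liver RNA of 6 mice was measured on Affymetrix arrays. Biotinylated cRNA was made from 400 ng of total RNA, per the labels' protocols. The authors deposited log2 values of 38208 probe sets. Per the submitters' processing notes these came from RMA, and limma is named too, with neither a version nor settings. RMA equalises the arrays and understates differences between dim signals.

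After 13 control features were left out, 38195 probe sets were tested one by one with lmFit and eBayes of limma 3.58.1 under R 4.3.3 (genotype only, two-sided, Benjamini-Hochberg adjustment, threshold 0.05). Names came from the platform annotation: 34325 probe sets had 1 gene, 62 several and 3808 none. The members and lists were chosen with earlier results of these data known. All member probe sets are named. From each list, the genes past the threshold are named, otherwise the 2 with the lowest p, plus a few chosen after their values were seen. Likeness took the 3 genes with the highest r.

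The number of arrays limits precision. On simulated data for this comparison (38195 probe sets), changes of 0.5 log2 units were recovered in 62% of 50 probe sets and changes of 1 unit in 100%, with 10 of 191 calls false. The changed probe sets were drawn at random from all of them and carried normal noise. The median SE over all probe sets was 0.097, against 0.48 for Hamp 1419196_at and 0.33 for Hamp2 1436643_x_at. The recovered shares therefore do not hold for such noisier members. No arrays were identical. No block was used, since the labels do not say that a sample number is shared between genotypes.

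Alternatives were quantile normalization, median centring, dimmer probe sets left out, 1 probe set or the median per gene, trended and robust variances, array weights, a replicate block and leaving out each array.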

Additional observations from a re-analysis of the deposited data

How the results depend on the processing

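Of the 2 called members, fewer passed with quantile normalization (1), the median of the probe sets of each gene (1), the replicate block (1) and trended and robust variances (0), and 1 passed without any 1 array (range 1 to 1). In these fits Scara5 passed except with trended and robust variances and without HKO 1, and Hamp2 passed only without HKO 1. The replicate number is not stated to pair the samples, and the deviations of same-numbered arrays correlated at -0.08, 0.06 and 0.10 across probe sets. The block gave 221 calls over all probe sets, against 268, and adjusted p of 0.0509 (Hamp2), 0.0699 (Flvcr2) and 0.086 (Tmbim1). The 3 calls in the iron list became 5 with trended and robust variances and 1 without any 1 array (range 1 to 1). Over all probe sets, 87 to 197 passed without 1 array (87 without HKO 1, 107 to 132 without HKO 3 or a control, 197 without HKO 2). The shift between the hepcidins was 1.32 with the mean of the probe sets of each gene, and 2.04 to 2.69 without 1 array.

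Signs turned for values near 0: Scara5 1431336_at with median centring (0.000361), Tfrc 1422966_a_at with array weights (-0.0118). The sign of Steap3 also turned, from -0.26 to 0.0634 by the median of its probe sets, which is the dim 1453498_x_at. Without 1 array, differences ranged from -0.87 to 0.10 (Hamp 1419196_at), -0.91 to 0.14 (Hamp 1419197_x_at), -0.0753 to 0.0168 (Hamp2 1456289_at), -0.0733 to 0.0950 (Scara5 1431336_at), -0.0947 to 0.102 (Tfrc 1422966_a_at) and -0.118 to 0.0163 (Tfr2 1459994_x_at). The other 31 probe sets refitted this way kept their sign. Refitted were the members, Tmbim1 and 1 probe set for each named iron gene except Il6ra, Bmp2, Smad6, Smad7 and Atoh8. With all arrays, Socs3 1455899_x_at passed with dimmer probe sets left out (adjusted p = 0.0402) and with trended and robust variances (0.0493), and Cd163 with these and the median per gene (0.0316 to 0.0413). The causes were not tested. Dim probe sets and differences near 0.5 log2 units are at the limit of 3 arrays a group. For noisier probe sets, such as those of Hamp, larger differences are at this limit too. The Il6 probe set, though dim, passed in the 7 alternative fits to all arrays that held it and in all 6 without 1 array.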
